A study of Homo sapiens with 12 samples.

Results

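The 10 genes described here are EGR1, EGR2, EGR3, EGR4, NR4A1, NR4A2, NR4A3, IER2, IER3 and IER5, members of 3 families of early response genes. They were chosen by name and matched from symbol to Ensembl identifier. All 10 were found among the 33704 genes with a read in at least 1 library. Poly(A) RNA of Jurkat cells, a human line derived from a T-cell leukaemia, was sequenced in 12 libraries, 2 in each of 6 groups. TAL1-KD cells carried an shRNA against the transcription factor TAL1 under doxycycline control and received 5 µg/ml doxycycline for 72 h, and TAL1-control cells carried it without doxycycline. UTX-KD and UTX-control cells differed in the same way, with an inducible shRNA against UTX, a histone demethylase encoded by KDM6A. These 4 groups grew in serum free of tetracycline with blasticidin and G418. J4-2uM cells received 2 µM GSK-J4, an inhibitor of UTX and of its relative JMJD3 (encoded by KDM6B), for 72 h in ordinary serum, and J4-control cells received DMSO for as long. The effect of doxycycline and that of the induced shRNA cannot be told apart in these libraries, and the labels do not say whether an shRNA line is 1 clone. The labels also do not say that replicates were separate cultures, so p-values measure only the spread between these libraries, which may be technical.

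The libraries held 55524079 to 82534711 counted reads. TAL1 mRNA stood at 252 and 278 CPM (reads scaled to a common library size) in the libraries labelled TAL1-KD, against 272 and 276 in TAL1-control, so the groups overlapped. TAL1-KD replicate 1 lay below both TAL1-control libraries and replicate 2 above both, so the TAL1 result depends on the library used. With all 4 libraries its log2 fold change was -0.07 (SE 0.09, edgeR adjusted p = 0.490). KDM6A stood at 29.7 and 29.8 CPM in UTX-KD, against 30.9 and 31.2 in UTX-control. These groups did not overlap, but the difference did not pass the test (log2 fold change -0.08, SE 0.04, edgeR adjusted p = 0.103). Neither targeted mRNA was thus shown to be lower by the test on all 4 libraries, and group names below are those of the labels. All 9 T-cell markers examined were at or above 1 CPM in every library. Of 9 markers of other cell types with an entry, CD79A (36.5 to 85.0 CPM) and COL1A1 (3.03 to 9.35 CPM) reached that level, while the myeloid marker CD14 stayed at or below 0.219 CPM. The summed level of these markers was 86.9 to 94.7 CPM in J4-2uM against 42.7 to 42.8 in J4-control, 61.4 to 63.2 in UTX-KD against 43.9 to 45.2 in UTX-control, and 71.4 to 75.8 in TAL1-KD against 80.3 to 81.1 in TAL1-control, and its part in the results was not tested. The 2 TAL1-KD libraries differed more from each other than other replicates did, with an SD of 0.25 for their log2 differences over genes against 0.10 in TAL1-control. Fold changes of the 10 genes in TAL1-KD are therefore given with their range, or with each lost call, when 1 library is left out, and for other genes named as changed in TAL1-KD each lost call is given.

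Early response genes are switched on without new protein synthesis when growth factors, antigen receptors or stress activate kinases such as ERK, and their short-lived mRNAs usually fade again within hours. EGR1, EGR2, EGR3 and EGR4 encode zinc finger transcription factors that bind GC-rich DNA. In T cells the antigen receptor induces EGR1, EGR2 and EGR3, and in mouse T cells EGR2 and EGR3 are known for restraining activation. NR4A1 (Nur77), NR4A2 (Nurr1) and NR4A3 (NOR-1) are orphan nuclear receptors, known in mouse for the death of self-reactive thymocytes and for the exhausted state of T cells. The IER genes are not a family by sequence as a whole: IER2 and IER5 share an amino-terminal domain and act in the nucleus, with IER5 binding the heat shock factor HSF1 and the phosphatase PP2A, while IER3 (IEX-1) is an NF-kB target that modulates cell survival. The RNA was taken at a single time, after 72 h, and no time course was measured.

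Promoters of early genes carry elements for the factors that signalling acts on, chiefly serum response factor (SRF, at CArG boxes) and CREB (at cyclic AMP response elements, CRE). The RefSeq promoter table (GRCh38.p14) held 10 start sites for 7 of the 10 genes, with the 250 bases before each start searched on both strands. EGR3, NR4A2 and IER3 had no window, so they were not searched for any motif. These 4 windows, chosen after the values were seen, are printed as examples of members with and without each kind of motif, with motif matches in capitals, reading 5′ to 3′ towards the start. The NR4A3 window ends 30 bases short of the start, where an exon of another transcript begins.
EGR1, chr5:138465229-138465478, plus strand: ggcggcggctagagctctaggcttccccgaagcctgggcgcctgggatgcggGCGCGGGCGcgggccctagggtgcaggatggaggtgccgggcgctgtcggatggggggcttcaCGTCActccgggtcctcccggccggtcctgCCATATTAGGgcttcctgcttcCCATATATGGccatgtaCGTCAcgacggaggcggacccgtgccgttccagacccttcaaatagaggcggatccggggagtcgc
EGR2 (the third start), chr10:62816367-62816616, minus strand: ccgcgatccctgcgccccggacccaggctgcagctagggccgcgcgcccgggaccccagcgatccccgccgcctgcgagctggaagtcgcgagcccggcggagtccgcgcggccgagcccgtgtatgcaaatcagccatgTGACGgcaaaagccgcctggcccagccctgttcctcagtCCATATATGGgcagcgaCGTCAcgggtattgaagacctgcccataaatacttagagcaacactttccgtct
NR4A3, chr9:99821635-99821854, plus strand: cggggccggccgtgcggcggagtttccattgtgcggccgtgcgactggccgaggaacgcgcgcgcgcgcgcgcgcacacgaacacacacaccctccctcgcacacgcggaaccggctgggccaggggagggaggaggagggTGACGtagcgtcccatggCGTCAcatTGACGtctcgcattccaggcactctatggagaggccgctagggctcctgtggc
IER5, chr1:181088450-181088699, plus strand: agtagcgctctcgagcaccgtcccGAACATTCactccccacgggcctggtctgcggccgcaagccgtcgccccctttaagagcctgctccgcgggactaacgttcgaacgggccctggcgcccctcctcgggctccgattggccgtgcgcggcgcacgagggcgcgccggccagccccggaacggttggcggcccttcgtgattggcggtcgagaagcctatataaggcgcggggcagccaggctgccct
The CArG box, found in 1.16% of 35116 RefSeq starts, occurred 2 times before EGR1, at 105 to 96 and at 83 to 74 bases upstream. It occurred 1 time before the third EGR2 start, at 71 to 62 bases, and any part of these boxes in the changes was not tested. The CRE core TGACG, found in 21.2% of starts, occurred 2 times before EGR1, 2 times before the third EGR2 start, 2 times before EGR4 and 1 time before IER2. Before NR4A3 it occurred 4 times, of which the match 25 to 21 bases upstream lies in the stretch not printed. The whole palindrome TGACGTCA (1.65% of starts) occurred before none of the 10 starts. EGR1 held 1 match to the EGR site GCGNGGGCG (8.41% of starts), at 198 to 190 bases. IER5 held 1 match to a heat shock element pattern, GAANNTTC (5.78% of starts), at 226 to 219 bases. The kB site (9.96% of starts) matched 2 times before EGR4 and 1 time before the second EGR2 start. No match was found before either NR4A1 start, or at any of the 10 starts for the NR4A site AAAGGTCA (1.05%), the AP-1 site TGANTCA (6.57%), the MEF2 site (0.515%) or TATAAA (10.7%). The CRE core lies inside the whole palindrome and no other 2 motifs overlapped in these windows. A match describes the letters of a window and does not show that a factor binds there.

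**Figure D1:**
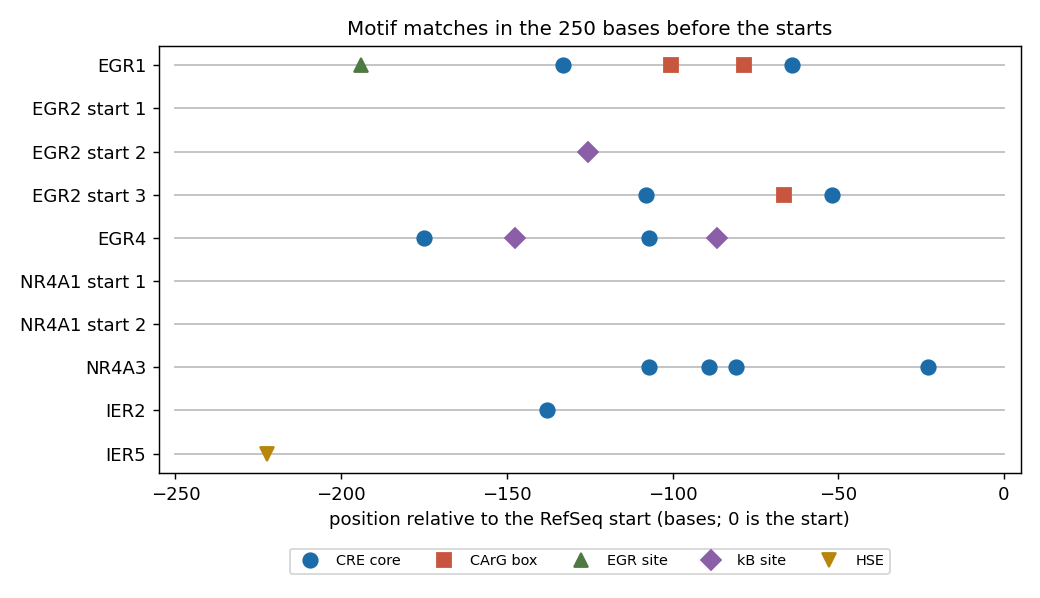
Position of motif matches in the 250 bases before 10 RefSeq starts of 7 genes, with distance to the start in bases on the x axis, 1 line per start and 1 symbol per motif at the middle of the match. Both EGR1 and the third EGR2 start carry CArG boxes within 105 bases of the start, NR4A3 carries 4 CRE cores, and the lines of both NR4A1 starts are empty.

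Expression of the 10 genes spanned several orders of magnitude. Per kilobase of merged exons, J4-control cells held IER2 at 19.0 CPM per kilobase, IER5 at 9.19, IER3 at 5.12, NR4A1 at 2.23 and EGR1 at 1.00. Below these came NR4A3 at 0.126, EGR3 at 0.0928, EGR2 at 0.0580, NR4A2 at 0.0230 and EGR4 at 0.0137. The same order held in J4-control with the length of the longest transcript. In TAL1-KD, IER3 stood at 30.0 per kilobase, above IER5 at 22.2, whereas in TAL1-control IER3 at 9.98 lay below IER5 at 15.7. In bulk RNA, fewer cells that express a gene and less RNA of it per cell cannot be told apart.

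EGR4 and NR4A2 were close to the limit of detection. EGR4 had 2 and 1 reads in TAL1-KD against 3 and 1 in TAL1-control, 2 and 6 in UTX-KD against 7 and 2 in UTX-control, and 6 and 5 in J4-2uM against 0 and 5 in J4-control. The library with no EGR4 read allows a level of up to 0.0540 CPM (3 reads, counting error only), and the groups overlapped in every comparison. NR4A2 had 2 and 1 reads in TAL1-KD against 7 and 7 in TAL1-control, 4 and 3 in UTX-KD against 9 and 3 in UTX-control, and 13 and 10 in J4-2uM against 3 and 10 in J4-control. Among the 10 genes only EGR4 in all comparisons and NR4A2 in the TAL1 and UTX comparisons failed the filter on low counts. Where NR4A2 was tested, with GSK-J4, it gave a log2 fold change of 0.55 (95% interval -0.47 to 1.58, edgeR adjusted p = 0.302), so a difference was not detectable at this depth.

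**Figure D2:**
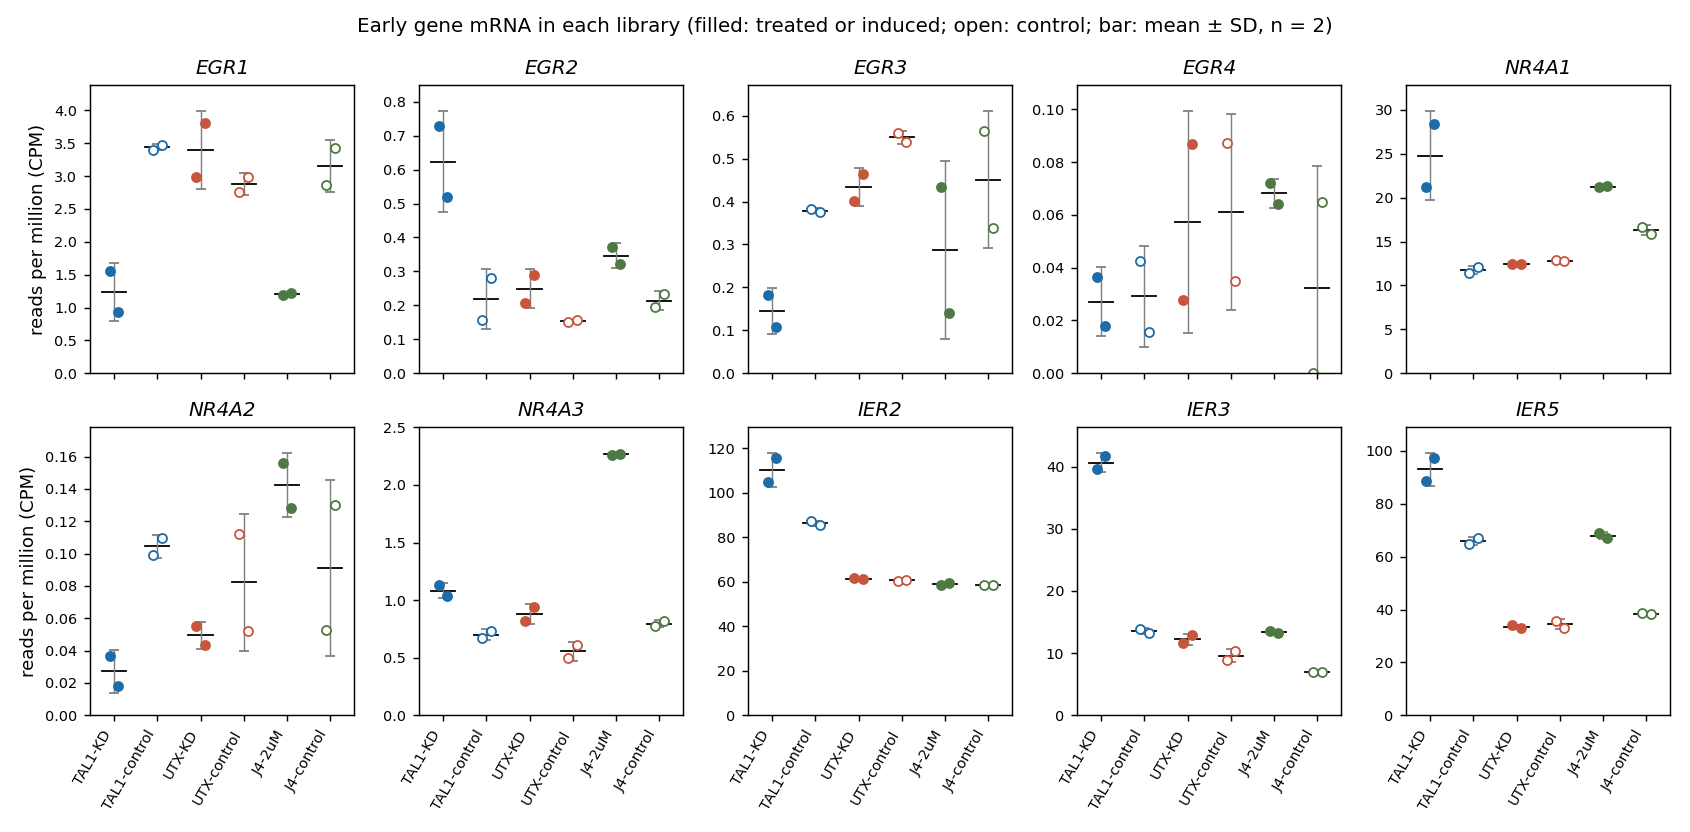
Level of each of the 10 genes in CPM on the y axis, scaled over all 12 libraries, with 1 point per library, filled for TAL1-KD, UTX-KD and J4-2uM and open for their controls, and bars for mean ± SD (n = 2). EGR1 stands between 0.930 and 1.55 in TAL1-KD and J4-2uM and between 2.77 and 3.82 in the other 4 groups, while IER3 stands at 39.5 and 41.7 in TAL1-KD against 6.91 to 13.9 elsewhere.

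EGR1, on chromosome 5, was the member that fell with both TAL1-KD and GSK-J4. In CPM scaled over the 12 libraries, as for all levels of the 10 genes below, it stood at 1.55 and 0.930 in TAL1-KD against 3.41 and 3.47 in TAL1-control. With GSK-J4 it stood at 1.19 and 1.22 in J4-2uM against 2.87 and 3.43 in J4-control. In both cases each treated or induced library lay below each control library. The log2 fold change was -1.49 for TAL1-KD (SE 0.24, edgeR adjusted p = 0.00217) and -1.39 for GSK-J4 (SE 0.13, edgeR adjusted p = 5.70e-07). Leaving out 1 library gave -1.90 to -1.16 and -1.51 to -1.26, and both stayed past the threshold of 0.05 each time. UTX-KD libraries held 2.98 and 3.82 CPM against 2.77 and 2.99 in UTX-control, so the groups overlapped. The log2 fold change for UTX-KD was 0.22 (95% interval -0.03 to 0.48, edgeR adjusted p = 0.141), and it was 0.39 with an edgeR adjusted p of 0.00971 without UTX-KD replicate 1. By group mean the order was TAL1-control, UTX-KD, J4-control, UTX-control, TAL1-KD and J4-2uM, with overlap between neighbours among the first 4 groups and within the last pair. EGR1 is the gene with 2 CArG boxes among the windows printed above.

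EGR2, on chromosome 10, rose in TAL1-KD, the direction opposite to EGR1. It stood at 0.729 and 0.518 CPM (40 and 29 reads) in TAL1-KD against 0.156 and 0.281 (11 and 18 reads) in TAL1-control, and the groups did not overlap. The log2 fold change was 1.50 (SE 0.36, edgeR adjusted p = 0.0110), and it was 1.12 with an edgeR adjusted p of 0.0770 without TAL1-control replicate 1. In the other comparisons EGR2 held 0.208 and 0.290 CPM in UTX-KD against 0.150 and 0.157 in UTX-control, and 0.373 and 0.321 in J4-2uM against 0.194 and 0.234 in J4-control. Every treated or induced library was above its controls there too, yet the edgeR adjusted p was 0.145 for UTX-KD (log2 fold change 0.67, 95% interval -0.11 to 1.46) and 0.0506 for GSK-J4 (0.68, 0.04 to 1.32). Its highest group, TAL1-KD, did not overlap the next, J4-2uM.

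EGR3, on chromosome 8, was lower in TAL1-KD as EGR1 was, with few reads. It stood at 0.182 and 0.107 CPM (10 and 6 reads) in TAL1-KD against 0.383 and 0.375 (27 and 24 reads) in TAL1-control, and the groups did not overlap. The log2 fold change was -1.40 (SE 0.36, edgeR adjusted p = 0.0143). It was -1.06 without TAL1-KD replicate 2 (edgeR adjusted p = 0.0680) and -1.38 without TAL1-control replicate 1 (0.0602), and the DESeq2 Wald test gave -1.39 with an adjusted p of 0.138. UTX-KD held 0.402 and 0.464 CPM against 0.561 and 0.540 in UTX-control (log2 fold change -0.37, edgeR adjusted p = 0.209). The J4-2uM libraries disagreed, at 0.433 and 0.141 CPM against 0.564 and 0.338 in J4-control. The groups overlapped, and the log2 fold change of -0.57 did not pass the test (95% interval -1.46 to 0.31, edgeR adjusted p = 0.219). Without J4-2uM replicate 1 it was -1.61 (edgeR adjusted p = 0.00402) and without J4-control replicate 2 it was -0.95 (0.0199).

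NR4A1, on chromosome 12, was the most abundant NR4A receptor and rose in TAL1-KD and with GSK-J4. TAL1-KD libraries held 21.2 and 28.4 CPM against 11.4 and 12.1 in TAL1-control, with 1.05 as log2 fold change (SE 0.14, edgeR adjusted p = 0.00113). J4-2uM libraries held 21.2 and 21.4 CPM against 16.7 and 15.9 in J4-control, with 0.39 as log2 fold change (SE 0.05, edgeR adjusted p = 1.01e-05). Neither pair of groups overlapped, and leaving out 1 library gave 0.84 to 1.26 for TAL1-KD and 0.34 to 0.41 for GSK-J4, past the threshold each time. UTX-KD libraries held 12.5 and 12.4 CPM against 12.9 and 12.8 in UTX-control, and this difference did not pass the test (log2 fold change -0.07, 95% interval -0.18 to 0.05, edgeR adjusted p = 0.343). With the trend on GC content and length of transcripts taken out of every library, NR4A1 stood at -0.14 in UTX-KD (edgeR adjusted p = 0.0334) and at 0.25 with GSK-J4 (0.000328). TAL1-control was the lowest of the 6 groups and TAL1-KD the highest, overlapping J4-2uM.

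NR4A3, on chromosome 9, rose in all 3 comparisons and most with GSK-J4. J4-2uM libraries held 2.26 and 2.27 CPM against 0.775 and 0.818 in J4-control, with 1.51 as log2 fold change (SE 0.15, edgeR adjusted p = 5.81e-07). It was 1.46 to 1.54 when 1 library was left out. UTX-KD libraries held 0.818 and 0.943 CPM against 0.498 and 0.609 in UTX-control (log2 fold change 0.67, SE 0.21, edgeR adjusted p = 0.0142). TAL1-KD libraries held 1.13 and 1.04 CPM against 0.667 and 0.735 in TAL1-control (0.61, SE 0.22, edgeR adjusted p = 0.0465). No pair of groups overlapped, but the last 2 calls rested on few reads and on single libraries. For UTX-KD the log2 fold change was 0.56 (edgeR adjusted p = 0.104) without UTX-KD replicate 2 and 0.51 (0.140) without UTX-control replicate 1, and the DESeq2 Wald test gave 0.65 with an adjusted p of 0.184. For TAL1-KD it was 0.55 (edgeR adjusted p = 0.0817) without TAL1-KD replicate 1, 0.54 (0.330) without TAL1-control replicate 1 and 0.67 (0.200) without TAL1-control replicate 2, and DESeq2 gave an adjusted p of 0.221. Among the members with a printed promoter window, NR4A3 is the one with 4 CRE cores, and it has neither a CArG box nor an EGR site there.

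IER3, on chromosome 6, rose in all 3 comparisons and kept each call when any 1 library was left out. TAL1-KD libraries held 39.5 and 41.7 CPM against 13.9 and 13.2 in TAL1-control, a fold of 2.95 (log2 fold change 1.56, SE 0.09, edgeR adjusted p = 0.000127). J4-2uM libraries held 13.6 and 13.3 CPM against 6.98 and 6.91 in J4-control (log2 fold change 0.96, SE 0.06, edgeR adjusted p = 1.23e-08). UTX-KD libraries held 11.6 and 12.9 CPM against 8.81 and 10.3 in UTX-control (0.35, SE 0.07, edgeR adjusted p = 0.000933). The groups did not overlap in any of these. Without 1 library the log2 fold change ran from 1.52 to 1.61 for TAL1-KD, 0.93 to 0.97 for GSK-J4 and 0.23 (without UTX-control replicate 1) to 0.45 for UTX-KD. The mean level in J4-2uM, 13.4 CPM, lay near the 13.5 CPM of TAL1-control, and the 3 control groups spanned 6.91 to 13.9 CPM. An antisense gene over IER3 exons, IER3-AS1, had 143 and 127 reads in J4-2uM against 46 and 69 in J4-control, where IER3 had 1130 and 1034 against 396 and 532. It had 86 and 110 in TAL1-KD against 83 and 99 in TAL1-control. The library kit keeps strand, but the strand setting of the counting is not given, so reads of the pair may not be fully separated. Opposite-strand genes also overlap exons of IER2 (37 to 89 reads in a library) and NR4A1 (0 to 3 reads), small beside the reads of these members. AC055854.1, annotated on the opposite strand over EGR3 exons, was not analysed here, so reads shared with EGR3, which had few reads, could not be examined.

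IER5, on chromosome 1, rose in TAL1-KD and with GSK-J4. J4-2uM libraries held 68.9 and 66.9 CPM against 38.6 and 38.3 in J4-control, with 0.83 as log2 fold change (SE 0.04, edgeR adjusted p = 2.05e-10). TAL1-KD libraries held 88.7 and 97.4 CPM against 64.9 and 67.0 in TAL1-control (0.47, SE 0.08, edgeR adjusted p = 0.00243). These groups did not overlap, and leaving out 1 library gave 0.79 to 0.84 and 0.42 to 0.55, past the threshold each time. UTX-KD libraries held 34.0 and 32.9 CPM against 35.8 and 33.1 in UTX-control, with overlap and a log2 fold change of -0.07 (95% interval -0.16 to 0.03, edgeR adjusted p = 0.215). IER5 is the member whose window, printed above, holds a heat shock element pattern.

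IER2, on chromosome 19, was the most abundant of the 10 genes per kilobase in J4-control and rose in TAL1-KD alone in the fits reported. TAL1-KD libraries held 105 and 116 CPM against 87.2 and 85.5 in TAL1-control, with 0.33 as log2 fold change (SE 0.08, edgeR adjusted p = 0.0105). The groups did not overlap, but the log2 fold change was 0.35 with an edgeR adjusted p of 0.125 without TAL1-control replicate 1 and 0.31 with 0.168 without TAL1-control replicate 2. J4-2uM libraries held 58.6 and 59.4 CPM against 58.4 and 58.5 in J4-control, and UTX-KD libraries 61.7 and 61.3 against 60.3 and 60.9 in UTX-control. The 95% intervals of the log2 fold change were narrow there, -0.06 to 0.09 for GSK-J4 and -0.07 to 0.07 for UTX-KD, and neither passed the test (edgeR adjusted p = 0.629 and 0.978). With the trend on GC content and length of transcripts taken out of every library, the value for GSK-J4 was -0.18 (edgeR adjusted p = 0.000234) and that for UTX-KD -0.09 (0.0107), so no direction is given for these 2 comparisons.

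Counted together, 6 of the 8 members tested rose and 2 fell in TAL1-KD, where 54.2% of all 16829 genes tested were called (26.3% higher, 27.9% lower). In UTX-KD 2 of 8 rose and 0 fell, where 50.5% of 16847 genes were called (25.2% higher, 25.3% lower). The edgeR test at an unadjusted p under 0.05, and DESeq2 with adjustment, also gave 0 lower there, and DESeq2 called 1 higher. With GSK-J4 4 of 9 rose and 1 fell, where 74.9% of 17907 genes were called (37.9% higher, 36.9% lower). Groups did not overlap for 8 of 8, 5 of 8 and 7 of 9 members, against 81.0%, 73.9% and 87.1% of all genes tested. These counts stand against backgrounds in which most genes were called. IER3 and NR4A3 rose in all 3 comparisons, as did 8.02% of the 16103 genes tested in all 3. EGR1 and EGR3 were lower in TAL1-KD, and of these EGR1 also fell with GSK-J4, as did 14.7% of those genes, while NR4A1, NR4A3, IER3 and IER5 rose in both, as did 14.1%. The count in TAL1-KD depended on single libraries and was lowest without TAL1-control replicate 1, where fewer of all genes were called too. In UTX-KD the count was lowest without UTX-KD replicate 2 or without UTX-control replicate 1, again with fewer of all genes called.

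**Figure D3:**
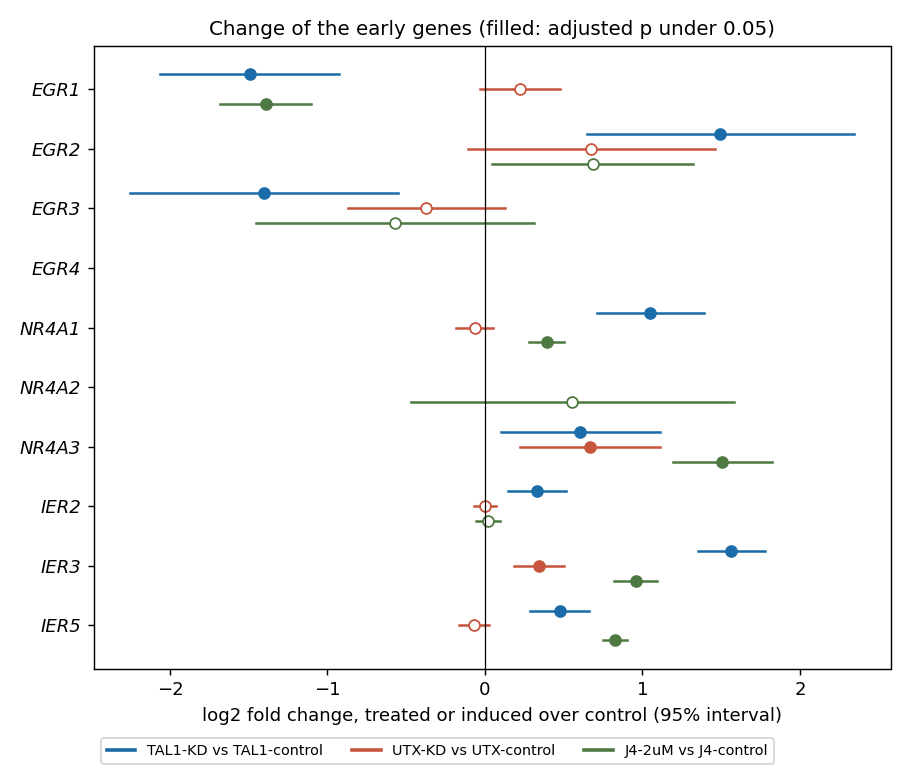
Log2 fold change of each gene on the x axis, with 95% intervals as lines, for TAL1-KD, for UTX-KD and for GSK-J4 (J4-2uM) over their controls, filled where the edgeR adjusted p was under 0.05. EGR1 lies at -1.49 and -1.39 for TAL1-KD and GSK-J4 and at 0.22 for UTX-KD, and IER3 and NR4A3 lie right of 0 in each comparison. EGR4 was not tested, and NR4A2 was tested with GSK-J4 alone.

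Whether responses differed was tested in edgeR over the 8 libraries of each pair of comparisons. Of the 8 members tested for TAL1-KD against UTX-KD, 5 differed, where 50.1% of genes did. For GSK-J4 against TAL1-KD 5 of 8 differed, where 53.9% of genes did, and for GSK-J4 against UTX-KD 5 of 9, where 58.4% did. The EGR1 response was lower with GSK-J4 than in UTX-KD by a log2 difference of -1.60 (SE 0.19, edgeR adjusted p = 1.83e-08). For EGR1 the responses to GSK-J4 and in TAL1-KD differed by 0.08, with a 95% interval of -0.55 to 0.70 and an edgeR adjusted p of 0.833. The NR4A3 response in TAL1-KD minus that in UTX-KD was -0.02 (95% interval -0.63 to 0.58, edgeR adjusted p = 0.950). NR4A1 and IER3 responded more in TAL1-KD than with GSK-J4, and NR4A3 and IER5 more with GSK-J4 than in TAL1-KD.

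Across the 12 libraries, after the mean of each comparison was subtracted from log2 (CPM + 0.5), the 8 members tested throughout fell on 2 sides. EGR1 and EGR3 correlated positively with each other (Pearson r = 0.67) and negatively with the other 6 members. For EGR1 the values were -0.94 with IER5, -0.92 with NR4A1, -0.89 with IER3, -0.75 with IER2, -0.73 with NR4A3 and -0.68 with EGR2. Among the other 6, r was 0.94 between NR4A1 and IER2, 0.92 between NR4A1 and IER3 and 0.90 between EGR2 and IER3, and it was lowest, 0.34, between NR4A3 and IER2. These coefficients are a description, since the points share libraries and treatments.

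The genes whose pattern over the same 12 libraries was most like that of a member, among 12963 with a mean of at least 1 CPM, came from varied classes. For IER3 they were ICAM1, an adhesion molecule (r = 0.99, log2 fold changes of 1.92 in TAL1-KD, 0.40 in UTX-KD and 1.26 with GSK-J4), SLC41A1, a magnesium transporter, and NFE2L1, a transcription factor. For EGR1 they were TMEM131, SEPT7-AS1 and AL024498.1, each at r = 0.99, where the antisense RNA SEPT7-AS1 changed by -1.90 in TAL1-KD, 0.27 in UTX-KD and -1.43 with GSK-J4. For NR4A3 they were DENND4C, MBNL2, a splicing regulator, and ATXN1 (r = 0.99 each), with ATXN1 at 0.48, 0.44 and 1.36 in the same order of comparisons. For NR4A1 they were MRPL34, a mitochondrial ribosomal protein, CCDC107 and MIEN1 (r = 0.99 to 1.00). For IER2 they were PTGER4, a prostaglandin receptor, PLCG1, the phospholipase of antigen receptor signalling, and CDC37, a kinase co-chaperone (r = 0.99 each). For IER5 they were SDCBP2, PHF3 and SAR1B (r = 0.99 each). The 2 members with few reads had lower values, 0.97 for NDUFB5, CRIPT and RSPRY1 with EGR2 and 0.88 to 0.95 for TCTEX1D2, CDR2L and GABRB2 with EGR3.

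The members are compact genes in part. IER2, IER3 and IER5 have 1 exon and the 4 EGR genes have 2 exons in their longest coding transcript, whereas 7.42% of 13558 coding genes have 1 or 2, and the NR4A genes have 8 or 9. GC content of that transcript ran from 46.9% in NR4A3 to 66.0% in EGR4, with a median of 49.4% over coding genes, and IER3 with 1350 bases is among the shortest 8.25%. AU-rich pentamers ATTTA, a hallmark of unstable mRNAs, were counted in the 3′ untranslated region. There were 10 in NR4A3, 10 in IER5, 6 in IER3, 4 in NR4A2, 3 in NR4A1, 3 in EGR3, 2 in EGR2, 1 in EGR1 and 0 in EGR4 and IER2, against a median of 2 over coding genes. A relation between the number of pentamers and the changes of the members was not tested. IER5 and NR4A3 have long untranslated regions of 3013 and 3024 bases. GC content also moved with the change over all genes, with r = 0.23 across genes, which are not independent replicates, between GC content and log2 fold change in TAL1-KD, 0.11 in UTX-KD and 0.12 with GSK-J4.

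Most of the other early genes, a list chosen with earlier results of these data known, rose in each comparison. Their counts describe the list only, and no test of it was made. Of 24 such genes 22 were tested, and 18 rose and 1 fell in TAL1-KD, where 26.3% of all genes were called higher (median log2 fold change 0.92, against -0.02 over all genes tested and 0.54 over the 8 members tested). In UTX-KD 15 rose and 4 fell, where 25.2% of all genes were called higher (median 0.42, against 0.01 over all genes and 0.11 over the 8 members tested). With GSK-J4 18 rose and 3 fell, where 37.9% were called higher (median 0.95, against 0.01 over all genes and 0.55 over the 9 members tested). JUN, an AP-1 subunit, rose by 2.12 in TAL1-KD (SE 0.10), 1.18 in UTX-KD (SE 0.05) and 2.18 with GSK-J4 (SE 0.05). TNFAIP3, an inhibitor of NF-kB signalling, rose by 2.08, 0.88 and 2.12 (SE 0.13, 0.03 and 0.04). PPP1R15A, which reverses the translation block of the integrated stress response, rose by 2.86 with GSK-J4 (SE 0.04), 1.13 in UTX-KD (SE 0.05) and 1.33 in TAL1-KD. ATF3, a stress-induced repressor, rose by 1.27 in UTX-KD (SE 0.05) and 2.27 with GSK-J4 (SE 0.05), and stood at -0.13 in TAL1-KD, where it did not pass the test (edgeR adjusted p = 0.199). JUNB rose by 1.22 in TAL1-KD, 0.27 in UTX-KD and 0.35 with GSK-J4, and GADD45B by 1.88, 0.51 and 1.01 in the same order. The genes that fell were KLF10 in TAL1-KD, MYC, KLF10, KLF6 and MCL1 in UTX-KD, and MYC, DUSP2 and MCL1 with GSK-J4. Of these MYC, the growth regulator, fell to 29.3 CPM in J4-2uM against 319 in J4-control (log2 fold change -3.44, SE 0.04, edgeR adjusted p = 2.95e-15, scaled within the comparison). The KLF10 call in TAL1-KD was lost without TAL1-control replicate 1, that in UTX-KD without UTX-KD replicate 1 or UTX-control replicate 2, and the MCL1 call in UTX-KD without UTX-KD replicate 1 or either UTX-control library. The MCL1 call with GSK-J4 was lost without J4-control replicate 2. Among genes that rose, the TAL1-KD call of KLF6 was lost without TAL1-control replicate 1 and that of MYC without either TAL1-control library. Calls of FOS, ARC and CD69 in UTX-KD and of DUSP5 with GSK-J4 were also lost in some fits without 1 library. Calls on these and the other related lists used the same edgeR threshold of 0.05. The genes that fell, and those given for a lost call, were named after their values were seen.

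Counts in the lists of genes upstream of the members stand beside the 54.2%, 50.5% and 74.9% of all genes called in TAL1-KD, in UTX-KD and with GSK-J4, split almost evenly by direction, and nothing is read from them about the lists. Of transcription factors that bind early gene promoters, 5 of 13 rose and 2 fell in TAL1-KD, 5 of 13 rose and 3 fell in UTX-KD, and 7 of 14 rose and 3 fell with GSK-J4 (medians 0.21, 0.06 and 0.15). SRF, the factor of CArG boxes, rose by 0.49 in TAL1-KD (SE 0.11) and changed by -0.52 with GSK-J4 (SE 0.03). Its coactivator MKL2 (MRTFB) changed by -0.76 in TAL1-KD (SE 0.12), -0.16 in UTX-KD (SE 0.03) and -0.50 with GSK-J4 (SE 0.04). ELK1, an SRF partner that ERK phosphorylates, rose by 0.67 in TAL1-KD (SE 0.09). The CREB coactivator CRTC2 rose by 0.83 in TAL1-KD (SE 0.12) and 0.58 with GSK-J4 (SE 0.03), and CRTC3 by 0.49 with GSK-J4 and 0.32 in UTX-KD. In the RAS to ERK cascade 6 of 16 rose and 2 fell in TAL1-KD, 2 rose and 3 fell in UTX-KD, and 7 rose and 3 fell with GSK-J4. The exchange factor RASGRP1, which couples the antigen receptor to RAS, rose by 0.36 in TAL1-KD (SE 0.08) and changed by -0.36 with GSK-J4 (SE 0.03), and its call in TAL1-KD was lost without either TAL1-control library. The kinase RSK2 (RPS6KA3) changed by -0.77 and -0.53 in these 2 comparisons.

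**Figure D4:**
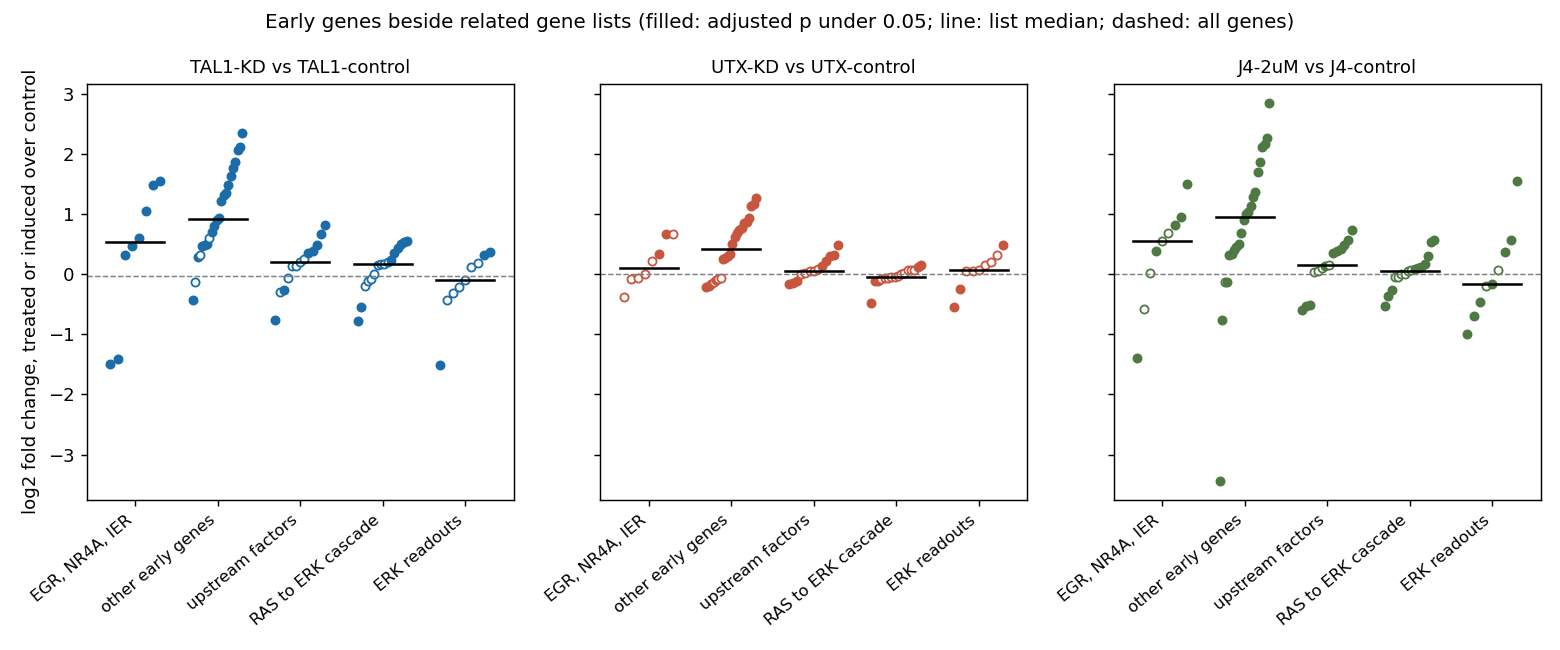
Log2 fold change on the y axis of the members (EGR, NR4A, IER) and of 4 related gene lists in TAL1-KD, UTX-KD and GSK-J4 (J4-2uM) over their controls, 1 point per gene tested, filled where the edgeR adjusted p was under 0.05, with a bar at the list median and a dashed line at the median of all genes. The other early genes have medians of 0.92, 0.42 and 0.95 and the members 0.54, 0.11 and 0.55, and the lowest point of the GSK-J4 panel is MYC at -3.44.

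Genes used as readouts of ERK activity are described beside the same shares of all genes called, and nothing is read from their counts either. Of 9 tested, 2 rose and 1 fell in TAL1-KD, 1 rose and 2 fell in UTX-KD, and 3 rose and 4 fell with GSK-J4 (medians -0.09, 0.07 and -0.15). The ERK pathway inhibitor SPRY4 changed by -1.51 in TAL1-KD (SE 0.21), where SPRY1 rose by 0.38 and SPRY2 by 0.32, both calls being lost without either TAL1-control library. SPRY1 changed by -0.99 with GSK-J4 (SE 0.07) and -0.54 in UTX-KD (SE 0.06), while PHLDA1 rose by 1.56 with GSK-J4 (SE 0.10). Counts in these lists moved with single libraries in TAL1-KD. The ERK readouts, promoter-binding factors and cascade genes called were fewest when either TAL1-control library was left out. They were most numerous without TAL1-KD replicate 1. Calls over all genes tested moved the same way, so nothing is read from these shifts about the lists. In UTX-KD the cascade genes called were fewest without UTX-control replicate 2 and most numerous without UTX-KD replicate 2.

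Partners and downstream genes were examined last, and their counts stand against the same shares of all genes called. Of 7 partners tested, 5 rose and 1 fell in TAL1-KD, 1 rose and 2 fell in UTX-KD, and 6 rose with GSK-J4, where the seventh, RXRA, stood at 0.08 (edgeR adjusted p = 0.253). IER5L, a relative of IER5, rose by 1.11 in TAL1-KD (SE 0.16) and 0.91 with GSK-J4 (SE 0.09). HSF1, the heat shock factor that IER5 binds, rose by 0.60 in TAL1-KD (SE 0.14) and 0.39 with GSK-J4 (SE 0.03). In UTX-KD HSF1 stood at 0.02 (edgeR adjusted p = 0.615). PPP2R2A, a regulatory subunit of PP2A, rose by 0.74 in TAL1-KD (SE 0.08) and changed by -0.14 in UTX-KD (SE 0.03). RXRB, a retinoid receptor that can pair with NR4A1, rose by 0.56 in TAL1-KD, 0.09 in UTX-KD and 0.47 with GSK-J4, and its call in UTX-KD was lost without UTX-KD replicate 1 or either UTX-control library. NAB1, a corepressor of EGR factors, changed by -0.49 in TAL1-KD (SE 0.08) and rose by 0.34 with GSK-J4 (SE 0.04). Of 10 genes described downstream of EGR or NR4A factors in T cells, 4 rose and 2 fell in TAL1-KD, 6 rose and 1 fell in UTX-KD, and 5 rose and 2 fell with GSK-J4. ID3, an inhibitor of E proteins, rose by 0.96 in TAL1-KD (SE 0.09), 0.46 in UTX-KD (SE 0.03) and 0.26 with GSK-J4 (SE 0.05). CBLB, a ubiquitin ligase that restrains T-cell activation, rose by 0.37 in TAL1-KD, 0.45 in UTX-KD and 0.36 with GSK-J4, the first call being lost without either TAL1-control library. TOX2 changed by -1.32 in TAL1-KD (SE 0.13) and rose by 0.60 in UTX-KD (SE 0.09) and 2.19 with GSK-J4 (SE 0.08). Fewer downstream genes were called in TAL1-KD without TAL1-control replicate 1, where fewer of all genes were called too.

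In the authors' deposited table, the log2 fold changes of EGR1 were -1.41 for TAL1-KD and -1.37 for GSK-J4, and those of IER3 were 1.57, 0.33 and 0.94 for TAL1-KD, for UTX-KD and for GSK-J4. The authors' deposited table gives EGR2 an adjusted p of 0.0314 for TAL1-KD. It gives EGR3 an adjusted p of 0.121 and NR4A3 one of 0.203 for TAL1-KD, and NR4A3 one of 0.170 for UTX-KD, so these 3 calls of edgeR are not made in the authors' deposited table.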

How the data were processed

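The authors deposited 1 table per comparison with raw read counts per Ensembl gene and library. TopHat2 (2.0.12), HTSeq (0.6.1p1) and DESeq2 were run with the build hg19, per the submitters' processing notes. Annotation and strand setting are not given in the sources used here. The log2 fold changes and p-values deposited by the authors were used for 1 paragraph of comparison alone. From the counts, genes passing filterByExpr were scaled by TMM and tested on the 4 libraries of a comparison with the quasi-likelihood test of edgeR 4.0.16 (two-sided, Benjamini-Hochberg over all genes tested, threshold 0.05). Differences of responses used 8 libraries. Levels of the members, the 3 targets and the cell type markers are CPM scaled over 12 libraries, and those of MYC are scaled within its comparison. The SE of a log2 fold change is its size over the root of F. The fit was tested on simulated counts. The 10 members and all lists were chosen with earlier results of these data known. Named genes were the members, the 3 targets and genes taken, per list and comparison, from up to 4 called genes with the smallest adjusted p. Not all of these are given in the text, and ELK4 and IKZF2 with GSK-J4 and HRAS in UTX-KD are among those left out. Symbols, lengths and GC content came from GENCODE 29, and promoters from RefSeq. CTGF and HBB had no matching symbol and MKL2 was matched by an older one. The alternatives were a threshold of 0.01, other filters, size factors of DESeq2, the Wald test of DESeq2 1.42.0, a replicate block, leaving out each library and 1 fit over 12 libraries. Removal of the GC and length trend (mgcv 1.9.3) was added after seeing the data.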

Additional observations from a re-analysis of the deposited data

Results flagged for a closer look

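For 6 members the response differed between comparisons in at least 1 test of the difference itself (edgeR, 8 libraries, adjusted p under 0.05). Of all genes tested, 50.1% differed in TAL1-KD minus UTX-KD, 53.9% in GSK-J4 minus TAL1-KD and 58.4% in GSK-J4 minus UTX-KD. The share of all genes that differed in at least 1 test was not computed, so nothing is read from the count of 6. Each value below is a difference of log2 fold changes. In TAL1-KD minus UTX-KD it was -1.68 for EGR1, 1.15 for NR4A1, 0.36 for IER2, 1.25 for IER3 and 0.57 for IER5. With GSK-J4 minus TAL1-KD it was -0.69 for NR4A1, 0.87 for NR4A3, -0.34 for IER2, -0.63 for IER3 and 0.32 for IER5. With GSK-J4 minus UTX-KD it was -1.60 for EGR1, 0.47 for NR4A1, 0.85 for NR4A3, 0.62 for IER3 and 0.90 for IER5. Leaving out 1 library moved the EGR1 difference in TAL1-KD minus UTX-KD between -2.10 and -1.35, and it changed the call of 1 of these differences. The IER5 difference between GSK-J4 and TAL1-KD was 0.31 (edgeR adjusted p = 0.0522) without J4-control replicate 2 and 0.30 (0.0509) without TAL1-control replicate 2. The EGR3 difference between TAL1-KD and UTX-KD, which did not pass the test (edgeR adjusted p = 0.0628), was -1.43 (0.0377) without TAL1-KD replicate 1. The cells of these comparisons also differed in line or medium, and in these differences line, medium and treatment cannot be told apart.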

How the results depend on the processing

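Of 287 recomputed fold changes of the members, 261 kept their direction and their side of the threshold, 19 lost the call and 6 gained one. The other, IER2 with GSK-J4, was 0.02 in the fit reported and -0.18 with the GC and length trend removed. Members called in TAL1-KD numbered 8, and 4 at a threshold of 0.01 or with a minimum of 10 CPM in 2 libraries, where fewer genes are tested. Those in UTX-KD numbered 2, and 1 at 0.01, with 10 CPM or by DESeq2, and 4 (2 higher, 2 lower) with the GC and length trend removed. Those with GSK-J4 numbered 5, and 3 with 10 CPM. With that minimum only NR4A1, IER2, IER3 and IER5 of the members were tested, in each comparison. Each of them that was called in the fit reported kept its call. The causes were otherwise not tested. Leaving out 1 library gave 4 to 7, 1 to 3 and 5 to 6 members for TAL1-KD, for UTX-KD and for GSK-J4, and 5 to 6, 4 to 6 and 5 to 5 for the difference tests in the order TAL1-KD minus UTX-KD, GSK-J4 minus TAL1-KD and GSK-J4 minus UTX-KD. Of 275 recomputed differences 272 kept direction and side. Calls over all genes in TAL1-KD were 2872 higher and 3046 lower at a threshold of 0.01, 2431 and 3094 without TAL1-control replicate 1, 2657 higher without TAL1-control replicate 2 and 3086 lower with 10 CPM, against 4424 and 4696. UTX-KD had 2801 higher by DESeq2 and 2450 lower in the 12-library fit, against 4240 and 4269, and GSK-J4 4397 lower with 10 CPM, against 6616.

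Same-numbered libraries deviated together only weakly (r across genes 0.20, 0.03 and -0.05 for TAL1-KD, for UTX-KD and for GSK-J4), so the numbers were not taken as pairs. With the replicate block 8, 2 and 6 members were called, and EGR3 with GSK-J4 stood at -0.68 (edgeR adjusted p = 0.0374). EGR2, EGR3, EGR4 and NR4A2 had at most 45 reads in a library, and this depth limits what can be seen of them.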

Other observations

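KDM6B, which encodes the JMJD3 demethylase that GSK-J4 also inhibits, was higher in all 3 comparisons. It stood at 344 and 338 CPM in TAL1-KD against 175 and 177 in TAL1-control, 173 and 174 in UTX-KD against 123 and 128 in UTX-control, and 184 and 181 in J4-2uM against 141 and 140 in J4-control, and no pair of groups overlapped. The edgeR log2 fold changes were 0.93 (SE 0.08), 0.45 (SE 0.03) and 0.39 (SE 0.03), with adjusted p of 0.000298, 3.01e-09 and 1.09e-07. TAL1 mRNA changed by -0.66 with GSK-J4 (SE 0.03, edgeR adjusted p = 6.02e-10) and by -0.12 in UTX-KD (SE 0.03, 0.00156). KDM6A rose by 0.44 with GSK-J4 (SE 0.04, edgeR adjusted p = 1.24e-07) and stood at 0.19 in TAL1-KD, where it did not pass the test (0.0576).

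The T-cell markers, among them chains of the T-cell receptor complex and its first kinases, which signal to early genes, were tested in each comparison. Of 9 T-cell markers 4 rose in TAL1-KD (54.2% of all genes were called there), among them the receptor chain CD3D by 0.93 (SE 0.13) and the kinase ZAP70 by 0.64 (SE 0.12). In UTX-KD 6 rose and 2 fell (50.5% of all genes called), with CD2 at 0.37 (SE 0.03) and CD3E at 0.33 (SE 0.03). With GSK-J4 3 rose and 5 fell (74.9% of all genes called), with the receptor zeta chain CD247 at -0.83 (SE 0.03) and CD3G at -0.62 (SE 0.04). These calls are by edgeR at an adjusted p of at most 0.05, and differences between comparisons were not tested for these genes. In TAL1-KD the markers called were fewest without TAL1-control replicate 2 and most numerous without TAL1-KD replicate 2. Calls over all genes tested also went down and up in these fits.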
